A study of Mus musculus with 6 samples.

Results

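The trypsin-fold serine proteases of the testis were examined in mice fed ethanol in a liquid diet for 16 weeks and in mice fed the control diet for as long. Members were the protein-coding genes whose symbols begin with Prss, Try, Tmprss, Klk or Ovch followed by a number, together with Acr, the gene of acrosin. The rule took 87 of the 21949 protein-coding genes in a table of 45777 genes, and 5 kallikrein pseudogenes were left out. No symbol of the Tessp form was listed, and genes once known by that name appear as Prss genes.

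Each diet had 3 libraries of total testis RNA from wild-type (WT) Mus musculus. The ethanol group is labelled Ethanol-fed and the control group Control-fed. All animals received 10 ml of LDC liquid diet a day and had been accustomed to the control diet for 5 days. The sources used here do not give strain, age or ethanol content. The labels do not tell whether the 3 libraries of a diet came from 3 animals, so every p-value reflects the spread between these libraries, which may be technical.

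Trypsin-fold proteases are made as inactive precursors, and most cut after a basic residue with a catalytic triad of histidine, aspartate and serine. Acrosin is stored as proacrosin in the acrosome, the secretory cap of the sperm head, and is released when sperm approach the egg. Several testis Prss genes encode proteins of the sperm surface, and mouse knockouts of Prss37, Prss55 and Tmprss12 are known for sperm that lack mature ADAM3 and fail to pass into the oviduct. Tissue kallikreins form a large rodent cluster beside Klk1, and Klk1b21, Klk1b24 and Klk1b27 are known from Leydig cells, the androgen-producing cells between the tubules.

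Total counts ran from 38935654 to 47420249 per library. Markers of the labelled tissue were present: summed CPM (counts scaled to library size by TMM) of 6 elongating spermatid genes was 13157 to 15622 in controls and 13230 to 16146 with ethanol. Sums of 6 round spermatid genes were 1142 to 1162 and 1010 to 1090 CPM, without overlap between the diets, and those of 8 Sertoli cell genes were 746 to 792 and 864 to 989 CPM, also without overlap. Exocrine pancreas genes summed to at most 3.06 CPM over 8 genes, with Ctrb1 at 0 counts. Epididymis genes summed to at most 6.28 CPM over 8 genes, and the mast cell genes to at most 0.655 CPM over 5 genes, with 3 of them at 0.

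Most of the protease RNA came from genes of the acrosome and sperm surface. In TPM, which scales counts by transcript length and so allows levels of different genes to be compared, 41 members had a mean of at least 1 and 23 of at least 10. The 7 genes of the acrosome and sperm surface (Acr, Prss21, Prss37, Prss39, Prss40, Prss54 and Prss55) all lay above 10 TPM and made up 55.3% of the TPM of all members. Another 9 Prss genes of testis germ cells (Prss41 to Prss46, Prss50, Prss51 and Prss52) made up 21.4%, the 26 kallikreins 11.9%, the 7 trypsins 7.18%, the 12 other Prss genes 2.70% and the 17 type II transmembrane proteases 1.50%.

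**Figure D1:**
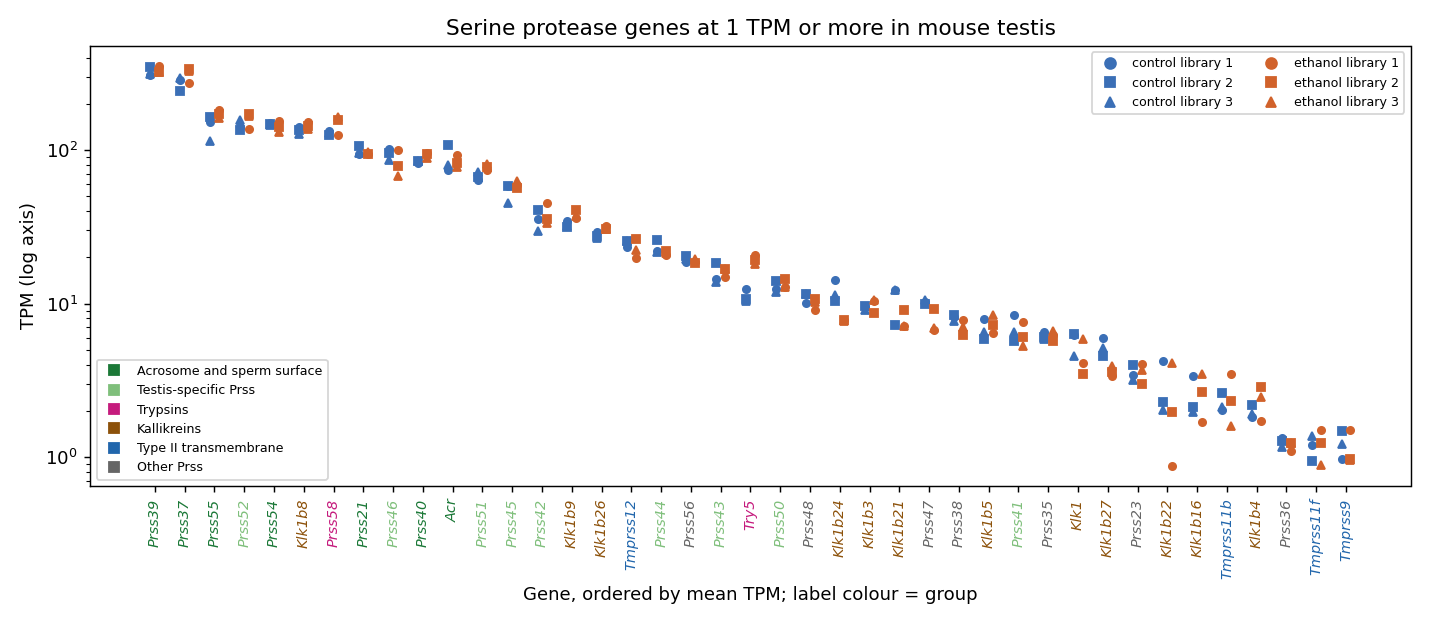
TPM in each library (log axis) of the 41 members with a mean of at least 1 TPM, ordered from the highest mean; blue marks are the 3 control libraries, orange marks the 3 ethanol libraries, and the colour of a name gives the gene group. Prss39 and Prss37 lie highest, and among the first 12 genes 9 of the 11 neighbouring pairs overlap.

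Prss39, whose product is the acrosomal protease TESP1, was highest at a mean of 328 TPM over the 6 libraries, followed by Prss37 at 294 TPM. Prss55 (158 TPM), Prss52 (152 TPM), Prss54 (145 TPM), Klk1b8 (139 TPM) and Prss58 (139 TPM) came next. Prss21 (96.8 TPM), Prss46 (88.4 TPM), Prss40 (88.2 TPM), Acr (85.8 TPM) and Prss51 (72.7 TPM) closed the first 12. Of the 11 neighbouring pairs in this order, 9 overlapped between libraries. The gaps lay below Prss37, whose lowest library (244 TPM) stood above the highest of Prss55 (184 TPM), and below Prss58, whose lowest (124 TPM) stood above the highest of Prss21 (106 TPM).

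At the other end, 16 members had 0 counts in all 6 libraries. They were 7 kallikreins (Klk5, Klk9, Klk10, Klk12, Klk13, Klk14 and Klk1b11), 6 of the 8 tryptase-like genes on chromosome 17 (Prss22, Prss27, Prss28, Prss29, Prss30 and Prss34), the pancreatic trypsins Prss1 and Try10, and Ovch2, an oviductin-like protease gene known from the epididymis. A count of 0 over these libraries allows up to 0.0116 CPM (3 counts), which covers counting error only. A further 17 members had between 2 and 51 counts over all libraries and fell below the filter on low counts, which asks for about 0.230 CPM in 3 libraries. Among them were Prss8 (prostasin, 51 counts), Tmprss3 (49 counts), Prss33 (39 counts), Klk1b1 (31 counts) and Prss2 (24 counts). The remaining 54 members were tested, and 0 of them passed the filter through 1 diet alone.

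The diet comparison asks how long-term ethanol intake changes these RNAs in the testis. By the quasi-likelihood test of edgeR, adjusted by Benjamini and Hochberg over 25073 genes, 0 of the 54 members passed an adjusted p of 0.05, where 0% of all genes passed. At an unadjusted p under 0.05, 3 members were higher with ethanol (Try5, Tmprss2 and Prss55) against 7.45% of all genes. On the lower side 6 members reached it (Klk1b24, Klk1b27, Klk1b21, Prss47, Prss38 and Prss46) against 5.89% of all genes. As shares of the 54 these counts are of the same order as the background. Leaving out control library 1 reduced the 9 to 5.

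The diets did not overlap in 3 members on the higher side, against 9.76% of all genes, and in 6 on the lower side, against 9.01%. DESeq2 called 2 members at an adjusted p of 0.05: Try5 on the higher side, where it called 0.81% of all genes, and Klk1b24 on the lower side, where it called 0.507%. It gave no adjusted p for some members of low level, Tmprss2 and Klk15 among them, so these could not be called. limma-voom called 0 members and 0.0199% of all genes. The median log2 fold change, ethanol minus control, was 0.02 over the 54 members and 0.01 over all genes tested, with 30 members above 0 and 24 below.

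**Figure D2:**
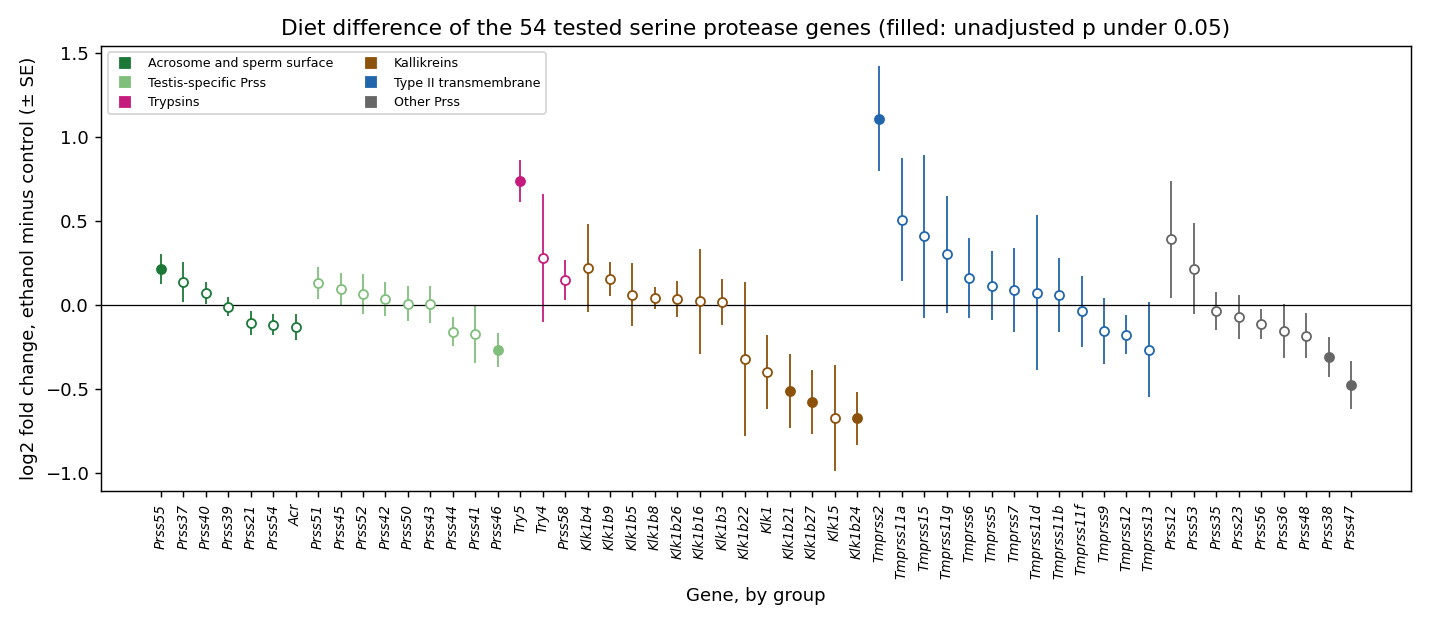
Log2 fold change (ethanol minus control, ± SE) of the 54 tested members, grouped and coloured by gene group; filled marks have an unadjusted p under 0.05 in edgeR's quasi-likelihood test, and none passed after adjustment. Members lie on both sides of 0 in every group but the trypsins, with 3 filled marks above it and 6 below.

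In the acrosome and sperm surface group the levels were close between the diets, with log2 fold changes from -0.13 to 0.21 and a median of -0.01. Prss39 measured 209, 219 and 223 CPM in control libraries 1, 2 and 3 and 217, 209 and 221 CPM in the ethanol libraries, which overlap throughout. Its log2 fold change was -0.01 (SE 0.06, adjusted p = 0.968). Acr, the gene of acrosin itself, stood at 72.3, 84.7 and 70.6 CPM in controls and at 71.6, 67.8 and 68.6 CPM with ethanol. Control library 2 was the highest for Acr, the other 5 libraries lay within 67.8 to 72.3 CPM, and the log2 fold change was -0.13 (SE 0.08, adjusted p = 0.504).

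Prss40, the TESP2 gene next to Prss39 on chromosome 1, gave 59.6, 59.1 and 65.3 CPM in controls and 64.1, 64.4 and 64.9 CPM with ethanol. Prss21 (testisin), a protease tethered to the sperm membrane by a lipid anchor, gave 55.0, 57.3 and 57.9 CPM in controls and 49.7, 51.8 and 56.7 CPM with ethanol. Prss54, a relative without catalytic activity, gave 144, 129.8 and 143 CPM in controls and 132, 127 and 126 CPM with ethanol. All of these overlapped between the diets, with log2 fold changes of 0.07 (SE 0.06) for Prss40, -0.10 (SE 0.07) for Prss21 and -0.12 (SE 0.06) for Prss54.

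Prss55, a membrane-anchored sperm protease, was the member of this group whose diets did not overlap. It measured 90.7, 90.0 and 70.7 CPM in controls and 98.3, 97.3 and 96.2 CPM with ethanol. The ethanol libraries lay close together above the controls, of which library 3 stood well below the others. The log2 fold change was 0.21 (SE 0.09, adjusted p = 0.328), and 0.10 without control library 3.

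Prss37, which encodes a relative without a complete catalytic triad, varied more between libraries than between diets. It gave 161, 129 and 174 CPM in controls and 141, 182 and 188 CPM with ethanol (log2 fold change 0.14, SE 0.12, adjusted p = 0.671). Its low libraries were control 2 and ethanol 1. Tmprss12, the transmembrane protease that shares the ADAM3 phenotype, gave 17.4, 17.4 and 19.5 CPM in controls and 13.3, 18.3 and 16.4 CPM with ethanol (log2 fold change -0.18, SE 0.12, adjusted p = 0.548). Here ethanol library 1 was the lowest.

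**Figure D3:**
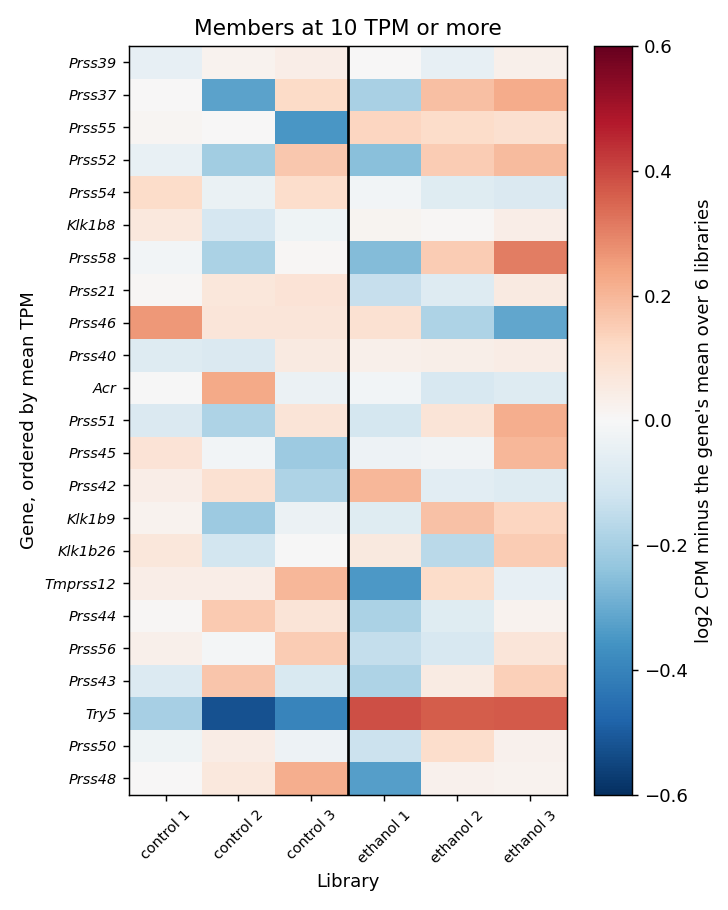
Log2 CPM of each of the 23 members with a mean of at least 10 TPM in each library, as the difference from the gene's mean over the 6 libraries; red is above that mean and blue below. Try5 is blue in all controls and red in all ethanol libraries, while Prss37, Prss52, Prss58 and Prss51 are blue in control 2 and ethanol 1.

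Prss52, Prss58 and Prss51 had the same low libraries as Prss37, control 2 and ethanol 1. Over 19537 genes these libraries deviated from their diet means together, with a correlation of 0.36 across genes, the highest of the 9 pairs of a control and an ethanol library. Prss52 gave 77.9, 69.6 and 90.0 CPM in controls and 67.6, 89.3 and 91.6 CPM with ethanol. Prss58, a trypsin-like gene near Prss37 on chromosome 6, gave 70.4, 62.3 and 71.6 CPM in controls and 59.5, 79.1 and 88.0 CPM with ethanol. Prss51 gave 35.1, 32.8 and 39.3 CPM in controls and 34.7, 39.3 and 43.4 CPM with ethanol. These 4 genes were picked out after their values were seen. Among 6 elongating spermatid markers, control library 2 was the lowest control for 6, and ethanol library 1 the lowest ethanol library for 4, with ethanol library 2 the lowest for Prm2 and Odf1; the part of germ cell makeup in these differences was not tested. Over the 23 members with at least 10 TPM, ethanol library 1 was the lowest library for 9 and control library 2 for 6.

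The Prss genes of testis germ cells showed no common direction, with 6 of 9 above 0 and a median log2 fold change of 0.01. Of these, 6 genes, Prss42, Prss44, Prss43, Prss45, Prss46 and Prss50, lie next to each other on chromosome 9 between positions 110797248 and 110864629 (mm10), a cluster that includes the proteases first described as TESSP genes. Within it the log2 fold changes were 0.04 for Prss42, -0.16 for Prss44, 0.01 for Prss43, 0.10 for Prss45, -0.27 for Prss46 and 0.01 for Prss50. Prss46 gave 68.7, 60.3 and 60.3 CPM in controls and 60.9, 50.3 and 46.1 CPM with ethanol. Its ethanol library 1 overlapped the controls while the others lay below them (SE 0.10, adjusted p = 0.280). Prss55, Prss51 and Prss52 are likewise neighbours, on chromosome 14, with log2 fold changes of 0.21, 0.13 and 0.07.

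Summed over all members, the 2 scales gave different pictures. In TPM the controls summed to 2113, 2143 and 2050 and the ethanol libraries to 2219, 2256 and 2206, without overlap. In TMM-scaled CPM the sums were 1390.1, 1324 and 1397 in controls and 1316, 1384 and 1436 with ethanol, which overlap. With TPM the median log2 fold change over all genes tested was 0.04, against 0.01 in the count fit, so diet differences were tested on the counts, and TPM values of the diets are given as levels alone.

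Among the trypsins, Try5 stood out from its relatives. This gene on chromosome 6 (chr6:41311232-41314710, mm10) encodes an anionic trypsin of the pancreatic type. It measured 5.34, 4.26 and 4.66 CPM in controls and 8.01, 7.89 and 7.89 CPM with ethanol. In TPM this was 11.1 ± 1.11 (SD, n = 3) against 19.4 ± 1.20 (SD, n = 3). All ethanol libraries lay above all controls and close to each other. The log2 fold change was 0.74 (SE 0.12), with an adjusted p of 0.106 in edgeR's quasi-likelihood test, 0.152 in limma-voom and 0.000979 in DESeq2. Over the alternatives it ranged from 0.66 to 0.82, with adjusted p from 0.000979 to 0.424.

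The other pancreatic-type trypsins were nearly silent. Try4 had 0.284 ± 0.0671 CPM (SD, n = 3) in controls and 0.346 ± 0.0602 CPM (SD, n = 3) with ethanol, and Prss2 had 24 counts, Prss3 had 2, and Prss1 and Try10 had 0 over all libraries. Defining genes of the exocrine pancreas were at or near 0, with Ctrb1 at 0 counts and the carboxypeptidase gene Cpa1 at 7 counts over all libraries. Of the stretches of 50 bases in the longest Try5 transcript (GENCODE M21), 52.4% occur in no other gene's transcript, and 77.5% of those of 100 bases do not. Counts of Try5 and Try4 are therefore uncertain where reads fall in the shared part.

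Of the 13 tested kallikreins 7 lay above 0 and 6 below, and Klk1b24, Klk1b27 and Klk15 did not overlap between the diets. Klk1b8 was the most abundant by far, at 65.2, 58.2 and 61.2 CPM in controls and 63.0, 62.7 and 64.2 CPM with ethanol. Klk1b9, an EGF-binding kallikrein gene, followed at 16.2, 13.7 and 15.6 CPM in controls and 15.2, 18.0 and 17.5 CPM with ethanol. Klk1b26 came next at 13.7, 12.2 and 13.1 CPM in controls and 13.6, 11.7 and 14.6 CPM with ethanol. Each of these overlapped between the diets, with log2 fold changes of 0.04 (SE 0.07), 0.16 (SE 0.10) and 0.03 (SE 0.11).

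Klk1b24 (chr7:44188234-44192455, mm10) gave 6.65, 4.55 and 5.57 CPM in controls and 3.35, 3.50 and 3.68 CPM with ethanol. Every control lay above every ethanol library, and the log2 fold change was -0.67 (SE 0.16, adjusted p = 0.153 in edgeR's quasi-likelihood test and 0.0263 in DESeq2). Over the alternatives it ranged from -0.80 to -0.53, with adjusted p from 0.0263 to 0.441. Klk1b27 gave 2.84, 2.05 and 2.56 CPM in controls and 1.46, 1.65 and 1.90 CPM with ethanol, again without overlap (log2 fold change -0.57, SE 0.19, adjusted p = 0.237). Klk1b21 gave 6.01, 3.31 and 6.23 CPM in controls and 3.15, 4.25 and 3.51 CPM with ethanol. Its control library 2 lay within the ethanol range, and the log2 fold change was -0.51 (SE 0.22, adjusted p = 0.350), or -0.75 without that library.

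Klk1, the tissue kallikrein that releases kinins, gave 3.23, 3.04 and 2.45 CPM in controls and 1.91, 1.69 and 3.02 CPM with ethanol, where ethanol library 3 overlapped the controls (log2 fold change -0.40, SE 0.22, adjusted p = 0.469). Klk15, outside the Klk1 family, was low throughout but did not overlap, at 0.534, 0.586 and 0.494 CPM in controls and 0.302, 0.343 and 0.365 CPM with ethanol (log2 fold change -0.67, SE 0.31, adjusted p = 0.390). Klk1b3 (gamma subunit of the nerve growth factor complex), Klk1b4 (its alpha subunit), Klk1b5, Klk1b16 and Klk1b22 all overlapped between the diets, with log2 fold changes from -0.32 to 0.22.

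Leydig cell markers differed in direction beside these kallikreins. Cyp11a1, the enzyme that opens steroid synthesis, gave 64.8, 67.9 and 41.5 CPM in controls and 21.9, 33.1 and 15.5 CPM with ethanol (log2 fold change -1.30, adjusted p = 0.127). Hsd3b6 gave 40.97, 46.3 and 46.9 CPM in controls and 79.1, 68.2 and 49.2 CPM with ethanol (log2 fold change 0.55, adjusted p = 0.157). Insl3, a Leydig cell hormone, overlapped, at 214 to 230.0 CPM in controls and 196 to 241 CPM with ethanol. Cyp17a1 gave 143, 146 and 124 CPM in controls and 71.8, 127 and 61.8 CPM with ethanol (log2 fold change -0.67, adjusted p = 0.204). Of the 7 Leydig genes listed 3 were above 0 and none was at 0 counts. At an unadjusted p under 0.05, 1 was higher and 2 were lower, where 7.45% of all genes were higher and 5.89% lower. The summed level of the 7 was 632 to 663 CPM in controls and 542 to 685 CPM with ethanol. The part of Leydig cell number in the kallikrein differences was not tested, and in whole tissue fewer cells of a type and less RNA per cell cannot be told apart.

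**Figure D4:**
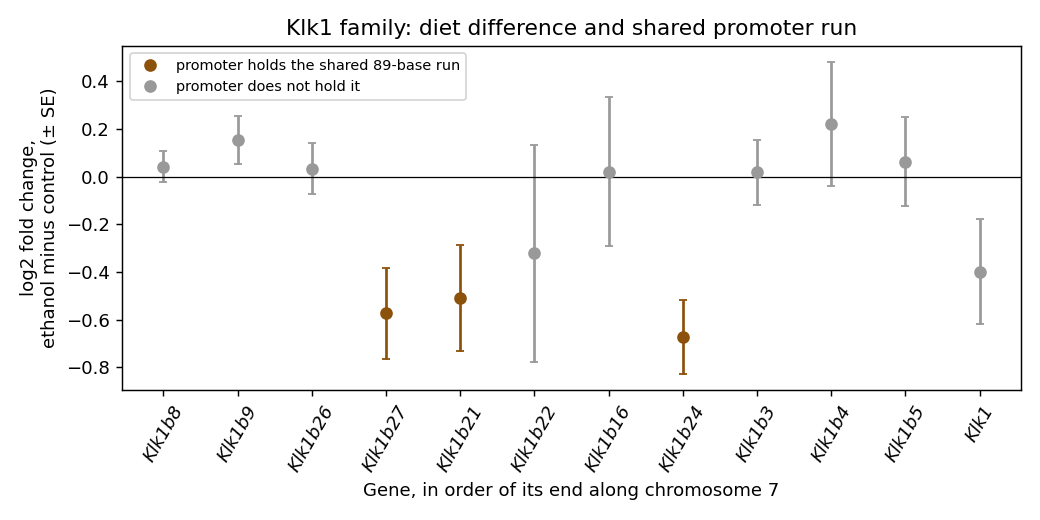
Log2 fold change (ethanol minus control, ± SE) of the 12 tested Klk1-family genes in the order of their ends along chromosome 7; brown marks have promoters that share an exact run of 89 bases. The 3 brown marks, Klk1b27, Klk1b21 and Klk1b24, lie between -0.51 and -0.67, and the 9 grey marks between -0.40 and 0.22.

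Because Klk1b27, Klk1b21 and Klk1b24 were grouped after their values were seen, their promoters are given as a description. The 250 bases before each RefSeq transcript start (GRCm38.p6) are shown for these genes and for Klk1b26, a neighbour that was level between the diets. Capitals mark the longest run that the 3 share exactly.
Klk1b27, chr7:44052040-44052289, strand +: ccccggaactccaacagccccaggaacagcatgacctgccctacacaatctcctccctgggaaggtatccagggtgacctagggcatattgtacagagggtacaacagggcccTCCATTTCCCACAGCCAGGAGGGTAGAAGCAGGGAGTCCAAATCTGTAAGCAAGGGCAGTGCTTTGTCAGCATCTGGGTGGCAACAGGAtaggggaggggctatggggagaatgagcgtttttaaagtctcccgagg
Klk1b21, chr7:44102042-44102291, strand +: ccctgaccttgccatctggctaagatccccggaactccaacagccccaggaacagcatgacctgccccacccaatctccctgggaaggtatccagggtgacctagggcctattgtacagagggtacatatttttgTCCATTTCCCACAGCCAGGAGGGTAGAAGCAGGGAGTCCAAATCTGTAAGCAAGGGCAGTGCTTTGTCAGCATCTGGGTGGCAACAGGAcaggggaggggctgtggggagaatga
Klk1b24, chr7:44187986-44188235, strand +: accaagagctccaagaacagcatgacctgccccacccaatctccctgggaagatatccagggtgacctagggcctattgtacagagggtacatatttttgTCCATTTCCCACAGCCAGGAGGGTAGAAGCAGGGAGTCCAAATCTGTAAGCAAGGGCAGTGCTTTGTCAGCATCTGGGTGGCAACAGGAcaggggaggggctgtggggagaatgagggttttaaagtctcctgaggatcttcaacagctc
Klk1b26, chr7:44012428-44012677, strand +: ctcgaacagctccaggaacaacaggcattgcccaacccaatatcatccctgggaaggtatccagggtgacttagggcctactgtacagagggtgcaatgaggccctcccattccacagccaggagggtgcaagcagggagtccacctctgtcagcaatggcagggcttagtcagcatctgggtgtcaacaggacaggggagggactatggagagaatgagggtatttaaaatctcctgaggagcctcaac

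The shared run is 89 bases long and occurs in 3 of the 32851 promoters of that table, those of the genes named. It lies at -137 to -49 from the start of Klk1b27, -115 to -27 from that of Klk1b21 and -150 to -62 from that of Klk1b24. The other 9 promoters of the family match it without gaps in at most 74 of 89 bases, a value reached by Klk1b16 and Klk1b26, while Klk1b8 matches in 44. An inserted or deleted base lowers such a match, and Klk1b8 was 84.0% to 88.3% identical to the 3 where gaps were allowed. Windows of 300 bases, which add 50 after the start, were aligned locally, with 200 to 294 bases aligned per pair and gaps not counted. Identity over the aligned bases was 91.6% to 98.1% among the 3 (3 pairs). Between one of them and another family member it was 81.3% to 88.9% (27 pairs), and among the others 79.0% to 93.2% (36 pairs). Among the others, Klk1b4 with Klk1b5 (93.2%), Klk1b16 with Klk1b26 (92.0%) and Klk1b3 with Klk1b4 (91.8%) exceeded the lowest of the 3 pairs. All stayed under the other 2.

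Sequence motifs were searched on both strands of the same windows. A member counted if any promoter listed for it held the motif, whereas the shares of all are per promoter, so the measures differ. TTTAAA, which stands in the place of a TATA box, was found in 11 of the 12 Klk1-family promoters against 13.2% of all promoters, and TATAAA in 0 of 12 against 13.6%. AGAACA, the hexamer that androgen and glucocorticoid receptors bind, was found in Klk1b24 and Klk1b3, 2 of the 12, against 19.0% of all. The full palindromic androgen response element, which contains that hexamer, was in 0 of 12 against 0.0091%. For the 43 tested members with a promoter in the table, TGACGT, the short form of the cyclic AMP response element, was in 2 against 7.51% of all, its full form TGACGTCA in 0 against 1.79%, and CCAAT in 24 against 37.4%.

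Reads of the Klk1 family can be shared between copies. Between 66.1% and 89.9% of the stretches of 50 bases in the longest transcript of each of the 12 genes occur in no other gene's transcript: 66.1% for Klk1b24, 70.9% for Klk1b21 and 85.7% for Klk1b27. With 100 bases the shares are 97.4%, 96.5% and 98.2%. The annotated Klk1b21 locus also spans Klk1b26 and Klk1b27, so single values in this family are uncertain. Among the other 42 tested members the share of unique 50-base stretches was over 95% for 39.

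Among the other Prss genes, Prss47 and Prss38 were lower in every ethanol library than in any control. Prss47 on chromosome 13 gave 7.35, 6.76 and 7.97 CPM in controls and 4.48, 6.33 and 5.04 CPM with ethanol. Ethanol library 2 came nearest to the controls (log2 fold change -0.48, SE 0.14, adjusted p = 0.207). Prss38 on chromosome 11 gave 6.03, 6.24 and 5.90 CPM in controls and 5.09, 4.48 and 5.12 CPM with ethanol (log2 fold change -0.31, SE 0.12, adjusted p = 0.302). Prss36, a protease with several catalytic domains in tandem, gave 2.42, 2.39 and 2.40 CPM in controls and 1.96, 2.38 and 2.12 CPM with ethanol; its highest ethanol library lay just under the controls, and the log2 fold change was -0.15 (SE 0.16, adjusted p = 0.725). The other 6 tested genes of this group, Prss12 (neurotrypsin), Prss23, Prss35, Prss48, Prss53 and Prss56, overlapped between the diets.

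**Figure D5:**
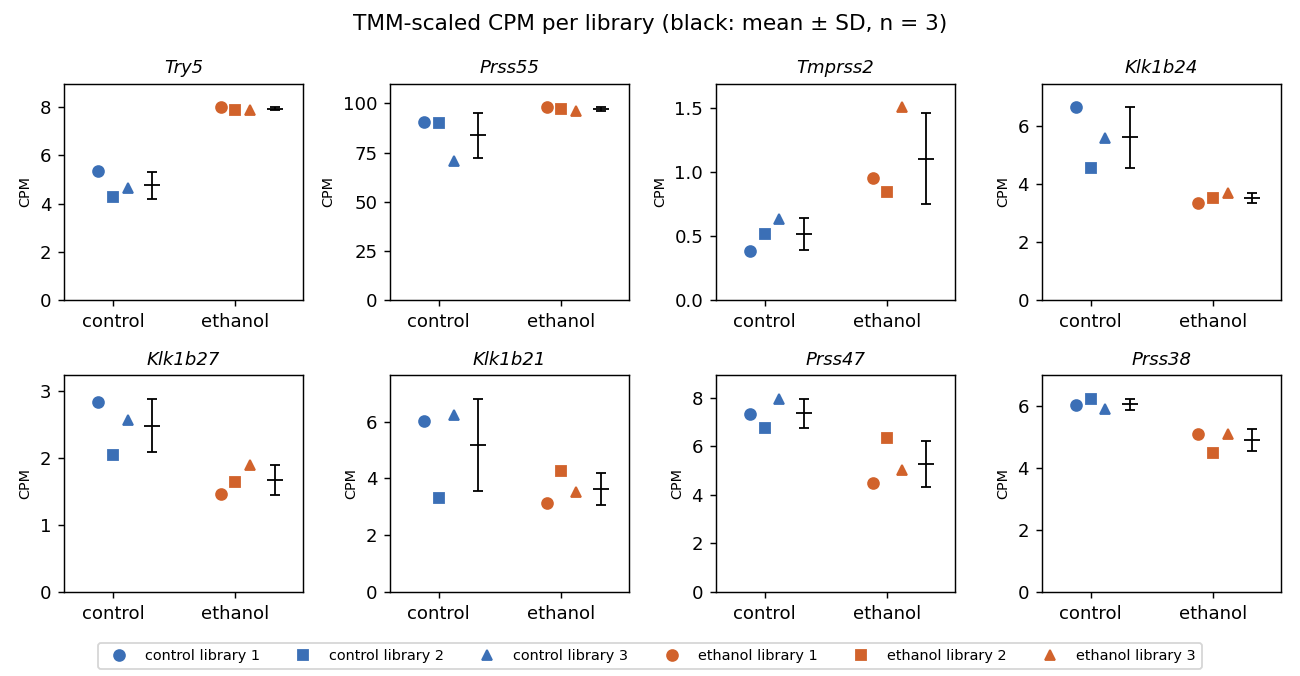
TMM-scaled CPM of 8 members in each library (control blue, ethanol orange; circle, square and triangle are libraries 1, 2 and 3), with mean ± SD in black; each axis starts at 0. In 7 panels the diets do not overlap, and in the panel of Klk1b21 control library 2 falls among the ethanol libraries.

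Type II transmembrane proteases were sparse apart from Tmprss12: the other 12 tested members had means of at most 2.35 TPM. Tmprss2, an androgen-regulated protease of epithelia known for priming viral spike proteins, gave 0.385, 0.518 and 0.635 CPM in controls and 0.957, 0.846 and 1.51 CPM with ethanol. All ethanol libraries were higher, ethanol library 3 most, and the log2 fold change was 1.11 (SE 0.31, adjusted p = 0.187). It ranged from 0.20 to 1.28 over the alternatives, the lowest on log2(FPKM + 1), a scale that understates changes of low genes. The remaining members of the class, among them Tmprss6 (which cleaves the iron regulator hemojuvelin), Tmprss15 (enteropeptidase, the activator of trypsinogen) and 5 genes of the Tmprss11 cluster on chromosome 5, overlapped between the diets.

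Partners of these proteases were read from lists chosen for their known roles, when the result of Serpina3a was already known from these data. Of 23 serine protease inhibitors 17 were tested, and 5 were higher and 0 lower at an unadjusted p under 0.05, where 7.45% of all genes were higher and 5.89% lower. The median log2 fold change was 0.17, against 0.01 over all genes. Of 8 Sertoli cell markers 5 were higher and 1, Amh (log2 fold change -1.09), was lower at an unadjusted p under 0.05. Their sums are given above, and the part of these cells in the inhibitor values was not tested. Serpina3a, a clade A serpin, gave 21.3, 23.5 and 21.9 CPM in controls and 33.9, 31.3 and 37.2 CPM with ethanol (log2 fold change 0.62, SE 0.09, adjusted p = 0.0765 in edgeR's quasi-likelihood test and 2.39e-06 in DESeq2). Slpi and Spint3 were far lower in level, at no more than 0.999 CPM in any library, with log2 fold changes of 1.60 (SE 0.44) and 1.44 (SE 0.50).

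All 13 proacrosin partners and other acrosomal contents were tested. In the count fit 0 lay above 0 and 5 were lower at an unadjusted p under 0.05, where 5.89% of all genes were lower, and the median was -0.09. On the TPM scale some of them had higher means with ethanol, Zpbp among them (107 TPM in controls and 109 TPM with ethanol). Pcsk4, the proprotein convertase of sperm, gave 87.6, 84.9 and 103 CPM in controls and 64.3, 67.5 and 86.8 CPM with ethanol (log2 fold change -0.33, SE 0.11, adjusted p = 0.238). Zp3r, an acrosomal matrix protein gene (log2 fold change -0.17, SE 0.06), and Spam1, the sperm hyaluronidase (-0.18, SE 0.07), did not overlap between the diets. The round spermatid markers, whose sums are given above, are not separate from this list: Acrbp, Spaca1 and Spaca7, 3 of the 6, are on both. The part of cell makeup was not tested.

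Knockouts of Prss37, Prss55 and Tmprss12 share the lack of mature ADAM3. In the list for the ADAM3 maturation pathway all 14 genes were tested and 0 reached an unadjusted p under 0.05. The median was -0.05, and the 3 of smallest p were Tpst2 (log2 fold change -0.25, SE 0.14), Pdilt (-0.12, SE 0.07) and Adam1b (-0.08). Of 4 protease-activated receptors, which trypsin-like enzymes switch on by cutting their outer end, only F2r passed the filter (log2 fold change 0.22, SE 0.15, adjusted p = 0.561).

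Among 35 other trypsin-fold proteases 20 were tested, with a median of 0.03, and 3 were higher and 1 lower at an unadjusted p under 0.05, where 7.45% of all genes were higher and 5.89% lower. Cfd, the complement protease adipsin of fat cells, stood at 0, 0 and 1.29 CPM in controls and 12.3, 3.36 and 0.609 CPM with ethanol. It was highest in ethanol library 1. Cfd is also one of 5 adipocyte genes, whose sum was 10.5 to 18.2 CPM in controls and 16.4 to 38.2 CPM with ethanol, and the part of fat tissue was not tested. Plg, the plasminogen gene, lay at 0.549 CPM or less in every library (log2 fold change 1.40, SE 0.45), and Tysnd1, a peroxisomal processing protease, was lower in all ethanol libraries (log2 fold change -0.34, SE 0.11).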

How the data were processed

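Total RNA of mouse testis was sequenced from 3 libraries a diet, made with a stranded kit after ribosomal RNA removal, per the labels' protocols. The submitters' processing notes name HISAT2 and the build mm10. For the counter, its strand setting and its annotation, the sources used here give no details, so antisense and overlapping genes are uncertain. The deposited table held whole-number read counts per gene, not normalized, beside FPKM and TPM computed by the authors, per the file headers. It held 0 columns of other samples. Library pairs differed by more than sampling noise (chi-square per gene at least 7.66), so each library was counted once.

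Counts were tested with edgeR 4.0.16 in R 4.3.3 (filterByExpr with a minimum count of 10, TMM, quasi-likelihood F-test with diet as the only term, Benjamini-Hochberg adjustment over 25073 genes), and the procedure was tested on simulated data. Alternatives used DESeq2 1.42.0, limma 3.58.1, RLE factors, other filters, log2(FPKM + 1), log2(FPKM + 0.1), a replicate block, each library left out in turn and, added after the data were seen, log2(TPM + 1). FPKM-based fold changes are on the log2(value + pseudocount) scale. Replicate numbers were not treated as pairs.

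Members and gene lists were chosen with earlier results of these data known, those of Try5 and Serpina3a among them. Named genes were the 12 members of highest mean TPM, up to 8 in each direction of smallest p whose diets did not overlap, 10 genes whatever their values, and up to 3 from each partner list. Klk1b21, Prss46 and other members appear in the account of their group, and further list genes were chosen after their values were seen. Coordinates are 1-based from NCBI's gene table for mm10. Promoters came from RefSeq (GRCm38.p6): 69 members matched, 43 of them tested. Transcript uniqueness used GENCODE M21.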

Additional observations from a re-analysis of the deposited data

How the results depend on the processing

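Over all genes tested, 0 passed an adjusted p of 0.05 in the edgeR fit, 330 with DESeq2 (203 higher, 127 lower), 5 with limma-voom, 2 with the filter of 1 CPM in 3 libraries, and 0 to 3 when a library was left out. Among the members DESeq2 called 2, Try5 and Klk1b24, and every other alternative run called 0. The 9 members at an unadjusted p under 0.05 became 5 to 10 when a library was left out, the 5 without control library 1. The same left-out fits gave a member median log2 fold change of -0.048 (without ethanol library 3) to 0.036. The labels do not say that replicate numbers pair the libraries. Same-numbered libraries had correlated deviations of -0.13, -0.01 and 0.31, and control library 2 was closest to ethanol library 1 (0.36). Deviations were taken from means of 3 libraries, so these correlations are tied together and cannot decide on pairing. With the replicate number as a block, 15 genes passed, 5 higher and 10 lower, 0 of them members, and Serpina3a reached an adjusted p of 0.0494. The genes Prss39 and Prss52, near 0, turned sign. Prss39, at -0.01, was 0.015 on log2(FPKM + 1), 0.015 on log2(FPKM + 0.1), 0.047 on log2(TPM + 1), and -0.042 to 0.013 when a library was left out, above 0 without control library 3 or ethanol library 2. Prss52, at 0.07, was -0.019 to 0.19 when a library was left out, below 0 without control library 2 or ethanol library 3. Of 535 values of 36 named genes under 15 alternatives, 524 kept direction and call. Since 0 genes passed in the main fit, keeping the call meant staying uncalled. The size could still move, as for Tmprss2, from 0.20 to 1.28. Genes under about 0.230 CPM were not testable at this depth; the cause of the other changes was not tested.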
